A study of Mus musculus with 3 samples.

Results

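Mouse ES cells were compared 4 days after the deletion of Nr0b1 was started and without the deletion, a comparison meant to show the first effects of losing the gene. The groups compared are those labelled Dax1 flox/Y and Dax1 flox/Y + Cre 4days, Dax1 being another name of Nr0b1, and they were chosen by label and not by any measured value. They are 2 of the 3 samples and 6 of the 9 arrays of the study, with 3 arrays per group, and all genes on the arrays were examined. The paper describes biological triplicates, but the labels do not tie an array to a culture, so p-values here measure the spread between these arrays, which may be technical in part.

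Both groups are male EB5 ES cells, which derive from the E14tg2a line. Their single copy of Nr0b1 carries loxP sites around the second exon. PiggyBac transgenes with the constitutive CAG promoter express Egfp and MerCreMer, a Cre recombinase that stays inactive until it binds 4-hydroxy tamoxifen (Tx). The cells of the first group, Nr0b1 fl-/Y-Tx (-Tx in what follows), were cultured without Tx. Those of the second group, Nr0b1 fl-/Y+Tx (+Tx), were cultured with Tx for 4 days. The exposure to Tx, the active Cre and the loss of Nr0b1 all differ between the groups and cannot be told apart. The methods of the study name a medium with fetal calf serum and LIF, used with or without feeder fibroblasts, and do not say which applied to these cultures. They describe 2 independent pairs of floxed and derived deleted lines, without saying which of them gave the RNA of these arrays. In bulk RNA such as this, fewer cells of a type and less RNA per cell cannot be told apart.

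RNA was hybridised to 1-colour Agilent arrays of 60-base probes. A log2 signal in this text is the log2 of the processed intensity of a probe minus that of the 75th percentile of the same array, which lay at 350.1 to 469.1 intensity units. Between 51.76% and 58.4% of 55681 probes were well above background on an array. Pearson correlations over genes were 0.994 to 0.997 between arrays of the same group and 0.985 to 0.988 between groups. The 3 -Tx arrays and +Tx array 1 shared a slide, while +Tx arrays 2 and 3 were on another slide. The number of arrays limits the precision of every value.

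Nr0b1 encodes a nuclear receptor without the usual DNA-binding domain, which modulates other transcription factors and is abundant in naive ES cells. Naive ES cells depend on LIF, which acts through Stat3, and on a network of factors such as Esrrb, Klf4, Tfcp2l1 and Tbx3. In cultures of ES cells a small, changing fraction of cells transiently expresses genes of the 2-cell embryo, where the embryonic genome is first transcribed, among them clustered families such as Zscan4, Usp17l, Tdpoz and Pramel.

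Nr0b1 itself gave log2 signals of 4.02, 4.18 and 4.10 on the -Tx arrays and of -2.58, -2.66 and -2.42 on the +Tx arrays. The groups lay far apart, with every +Tx array below every -Tx array, and the probe was still well above background on all 3 +Tx arrays. Whether the probe lies within the deleted second exon was not established, so what the remaining signal measures is not known. A gene is called higher or lower here at over 2-fold with an adjusted p under 0.05 from limma, which was fitted to all 9 arrays and 22443 genes with Benjamini-Hochberg adjustment. Genes in this text are names on the array: 16123 of the 22443 carried a gene symbol, and the rest were transcript, clone, probe or region names. By this rule 392 genes were higher (1.75% of those tested, 277 with a symbol) and 171 lower (0.762%, 143 with a symbol) after 4 days with Tx. These counts were 154 and 52 with normexp, another background correction, 209 and 93 with only probes above background on all 9 arrays, and 171 and 31 in a test against a fold of 2. Without a fold limit 2678 genes (11.9%) were higher and 3302 (14.7%) lower at the same adjusted p. The counts without a fold limit were 1067 and 1164 with slide as a block, and leaving out -Tx array 2, -Tx array 3 or +Tx array 2 brought the lower genes to 1867, 2054 and 2147. The arrays of the 2 groups did not overlap for 4077 higher and 6477 lower genes of the 22443, so a lack of overlap is common. Over the genes tested the log2 fold change had a median of -0.06, and the 2 kinds of count are the background against which gene groups are read below. This background covers all names tested, while the lists hold named genes. No list below was given a test of its own.

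The probes of Nr0b1 and of 2 of the duplicated families are shown because the copies are so alike that their signals cannot be taken as separate measurements. In the array annotation on mm9 they lie at chrX:83441169-83441228 (Nr0b1), chr7:11379679-11379738 (Zscan4a), chr7:11595751-11595810 (Zscan4c), chr7:111802099-111802158 (Usp-ps) and chr7:110568320-110568379 (Usp17l5). Capitals mark the bases that differ between the members of a pair, 2 of 58 shared bases for Zscan4 and 2 of 60 for Usp17l.
Nr0b1: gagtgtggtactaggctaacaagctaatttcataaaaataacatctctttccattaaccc
Zscan4a: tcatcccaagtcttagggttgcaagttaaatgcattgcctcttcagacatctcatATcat
Zscan4c: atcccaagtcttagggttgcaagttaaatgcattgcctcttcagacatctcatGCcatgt
Usp-ps: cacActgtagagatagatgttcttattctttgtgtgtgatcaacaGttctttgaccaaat
Usp17l5: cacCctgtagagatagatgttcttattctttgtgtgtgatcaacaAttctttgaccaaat

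The families of 2-cell genes rose together beyond their leading members. All 4 Zscan4 genes tested were called higher, with a median log2 fold change of 3.42. Zscan4f, of the family of zinc finger proteins with a role in telomere maintenance, gave log2 signals of 1.83, 2.06 and 1.91 on the -Tx arrays and of 5.43, 5.34 and 5.52 on the +Tx arrays. The groups did not overlap, and the gene was 11.3-fold higher (log2 fold change 3.50, SE 0.097, adjusted p = 1.14e-07). Zscan4e had a log2 fold change of 3.58 and Zscan4a one of 3.34. Of 7 genes of deubiquitinating enzymes of the Usp17l and Dub family, 6 were called higher and the seventh passed without a fold limit. Of the 7, 5 were above background on all 6 arrays. The other 2 were so on all +Tx arrays but not on all -Tx arrays, so that the filter favoured them. The probes of Usp-ps, Usp17l5 and Usp17la differ by 2 to 5 bases, and those of Usp17lc and Usp17ld by 4. Within each of these sets the signals are not separate measurements. Other genes of zinc finger proteins showed no such rise: of 9 other Zscan genes none was higher and 5 were lower without a fold limit, and of 339 Zfp genes, which encode zinc finger proteins, 24 were higher and 64 lower without a fold limit, with none past 2-fold.

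Pramel, Pramef and Oog genes encode leucine-rich proteins of germ cells and early embryos, and form large clusters. Of 33 on the array, 19 passed the filter on dim probes, 10 were called higher and none was called lower. Of the 19, 10 were above background on all 6 arrays, and 4 on all +Tx arrays but not on all -Tx arrays, so that the filter itself favoured members that are high with Tx. Pramel39 gave log2 signals of -2.52, -2.79 and -2.85 on the -Tx arrays and of 0.66, 0.57 and 0.82 on the +Tx arrays. Every +Tx array lay above every -Tx array, and the signal was 10.6-fold higher (log2 fold change 3.40, SE 0.105, adjusted p = 2.03e-07). Pramel19 was 9.89-fold, Pramel37 7.61-fold and Pramel31 7.72-fold higher, Pramel31 being above background on 1 of 3 -Tx arrays. Pramel16 and Pramel21 were well above background on the +Tx arrays alone, and were at least 2.49-fold and at least 2.78-fold higher. The brightest probe of Oog2 gave a 2.13-fold rise and the other one a log2 difference of -0.13. With normexp, and with only probes above background on all 9 arrays, 5 genes of the family were called higher.

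The Pramel39 promoter is printed because the last 211 of its 300 bases are identical to those of Pramel37. The 300 bases run from 250 before to 50 after the start in RefSeq (GRCm38.p6, chr5:94306747-94307046, minus strand). Capitals mark CTTTGAT, a core motif of Tcf and Lef factors, and TATAAA, the core of a TATA box.
Pramel39: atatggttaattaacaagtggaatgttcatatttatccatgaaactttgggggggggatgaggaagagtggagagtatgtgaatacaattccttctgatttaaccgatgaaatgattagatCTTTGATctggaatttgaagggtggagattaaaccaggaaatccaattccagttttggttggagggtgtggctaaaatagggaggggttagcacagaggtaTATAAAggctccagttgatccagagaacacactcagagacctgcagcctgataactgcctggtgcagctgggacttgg

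On a list of further 2-cell genes 13 of 33 were called higher and none lower, 3 of the 13 being Pramel genes counted above as well, and 18 passed without a fold limit in that direction against 2 in the other. Slc1a1, which is no member of that list, encodes a glutamate and cysteine transporter and stood among the 30 largest rises. It gave log2 signals of -3.43, -3.25 and -3.30 on the -Tx arrays and of -0.40, -0.37 and -0.34 on the +Tx arrays. The 3 +Tx arrays were close to each other and far above the -Tx arrays, a 7.76-fold difference (SE of the log2 fold change 0.067, adjusted p = 5.57e-08). Calcoco2, an autophagy receptor, was 3.73-fold higher, and Tmem92, a membrane protein, 7.48-fold. Arg2, the mitochondrial arginase, was above background on the +Tx arrays alone and at least 2.48-fold higher. Pif1, a DNA helicase, was 2.31-fold higher. Prmt6, an arginine methyltransferase, rose by less than the 2-fold limit (log2 fold change 0.64, adjusted p = 0.00032, and 0.28 by its other probe). The list of chromatin repressors known to hold 2-cell genes silent changed little: of 36 genes 1 was higher and 2 lower without a fold limit, a smaller share than among all genes, and the median log2 fold change was -0.03. Its 2 lower members were Smchd1 (-0.46 on the log2 scale, adjusted p = 0.00122) and the histone chaperone Hira (-0.39, adjusted p = 0.00756, and 0.077 with slide as a block). Kdm1a gave -0.15 (adjusted p = 0.0869, and 0.0416 without +Tx array 3) and Rif1 0.23 (adjusted p = 0.0662, and 0.0498 without +Tx array 2).

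**Figure D1:**
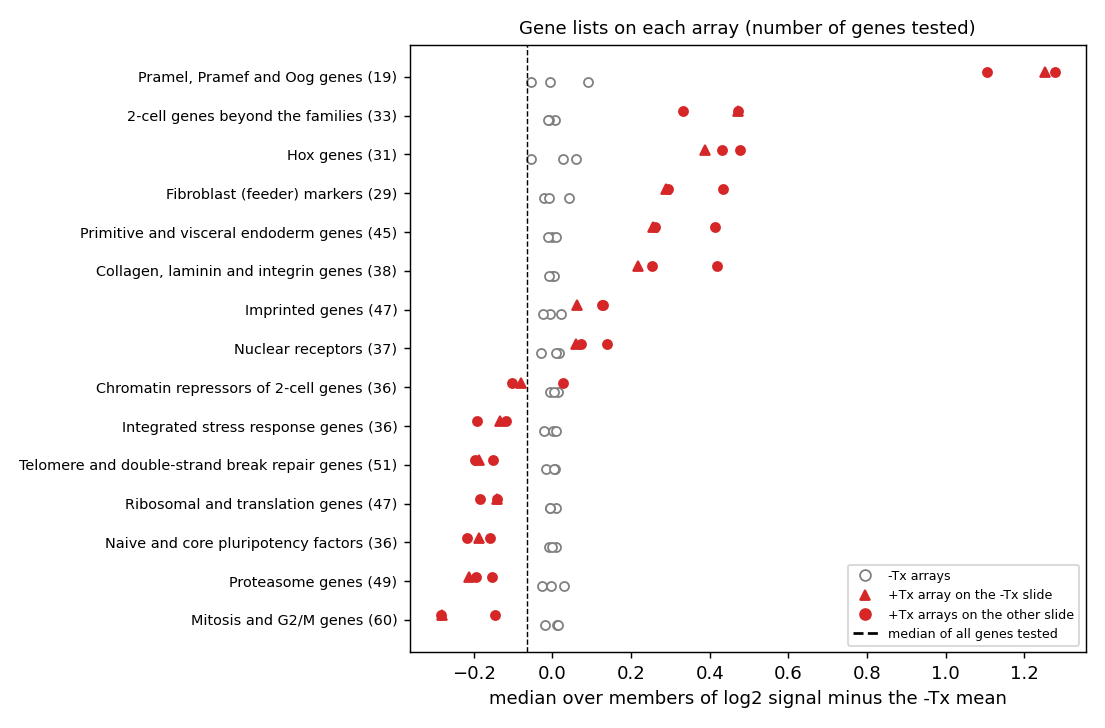
Median over the members of 15 gene lists of the log2 signal minus the -Tx mean (horizontal axis, log2 units), on each -Tx array (open circles) and each +Tx array (red, a triangle for the array that shared the slide of the -Tx arrays). The number of genes tested stands beside each list and the dashed line is the median of all genes tested, -0.06. The mitosis genes lie at -0.28 to -0.15 on the +Tx arrays.

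Some of the genes called higher lay side by side in the genome. Runs were defined as 3 or more genes called in the same direction with gaps of at most 200000 bases between their probes, on mm9. There were 21 such runs of higher genes and none of lower genes. The genes of the runs below that belong to no list were picked with their values in view. The longest run held 10 called genes of 17 tested on chromosome 12 from 88858331 to 89276124, with a median log2 fold change of 3.21 over its called genes. Among them were Gm8300, Gm7104 and Gm2022, relatives of the translation factor Eif1a, and also clone, probe and region names without a gene symbol. The probes of this run were not compared with each other, so its entries may not be separate measurements. Gm2022 gave log2 signals of 0.12, 0.10 and 0.12 on the -Tx arrays and of 3.35, 3.33 and 3.46 on the +Tx arrays, with no overlap. The 7 other genes tested in that span were not called. Further runs held 4 of 5 genes tested around Usp-ps and Usp17la on chromosome 7 and 6 of 8 around Tmem92 on chromosome 11. The second probe of Usp17la gave a log2 difference of 0.04 against 3.35 for the brighter probe.

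The runs that follow held none of the Zscan4, Usp17l, Tdpoz or Pramel genes. On chromosome X from 8539269 to 8845027, 5 of 7 genes tested were called, among them Fthl17d, Fthl17e and Fthl17f, which encode ferritin heavy chain-like proteins of the germ line. Fthl17f gave log2 signals of -1.31, -1.25 and -1.24 on the -Tx arrays and of 0.71, 0.76 and 0.72 on the +Tx arrays. The groups were clearly apart, with a 3.99-fold difference (SE of the log2 fold change 0.068, adjusted p = 3.47e-07). Fthl17d was 4.94-fold and Fthl17e 4.56-fold higher. The probes of the Fthl17 copies were not compared with each other either. On chromosome 11 from 69146197 to 69413312, 5 of 21 genes tested were called. These were Kcnab3 (a potassium channel subunit), Dnah2 (a dynein of cilia), Efnb3 (an ephrin ligand), Wrap53 (a telomerase and Cajal body factor) and Atp1b2 (a sodium pump subunit). Efnb3 gave log2 signals of -0.61, -0.77 and -0.71 on the -Tx arrays and of 1.75, 1.87 and 1.76 on the +Tx arrays. All +Tx arrays were above all -Tx arrays, and the signal was 5.6-fold higher (SE of the log2 fold change 0.066, adjusted p = 8.92e-08). On the same chromosome, the muscle myosin genes Myh3, Myh4 and Myh13 were 2.22-fold, 2.35-fold and 3.78-fold higher. On chromosome 17 Pdia2, Arhgdig and Rgs11 were 3.08-fold, 2.10-fold and 2.76-fold higher. On chromosome 8 Chst5, Tmem231 and Gabarapl2 were 2.63-fold, 2.34-fold and 2.78-fold higher.

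A run on chromosome 9 from 7282762 to 7510070 held 4 called genes of 5 tested, all matrix metalloproteinases. Mmp13, a collagenase, gave log2 signals of -2.65, -2.74 and -2.58 on the -Tx arrays and of -1.41, -1.55 and -1.27 on the +Tx arrays, without overlap, and was 2.37-fold higher (adjusted p = 0.000216). Mmp1a was 3.06-fold higher. Mmp1a and Mmp1b were each above background on 1 of 3 -Tx arrays. Mmp1b was 3.30-fold higher with 1 +Tx array apart from the others (-2.91, -1.45 and -2.66), and its adjusted p was 0.19 with slide as a block. Mmp10 was 2.06-fold higher and fell under the 2-fold limit without -Tx array 1 or +Tx array 3 (log2 fold change 0.85 and 0.99). Fibroblasts express such enzymes, and the part of fibroblast RNA in these values was not tested.

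**Figure D2:**
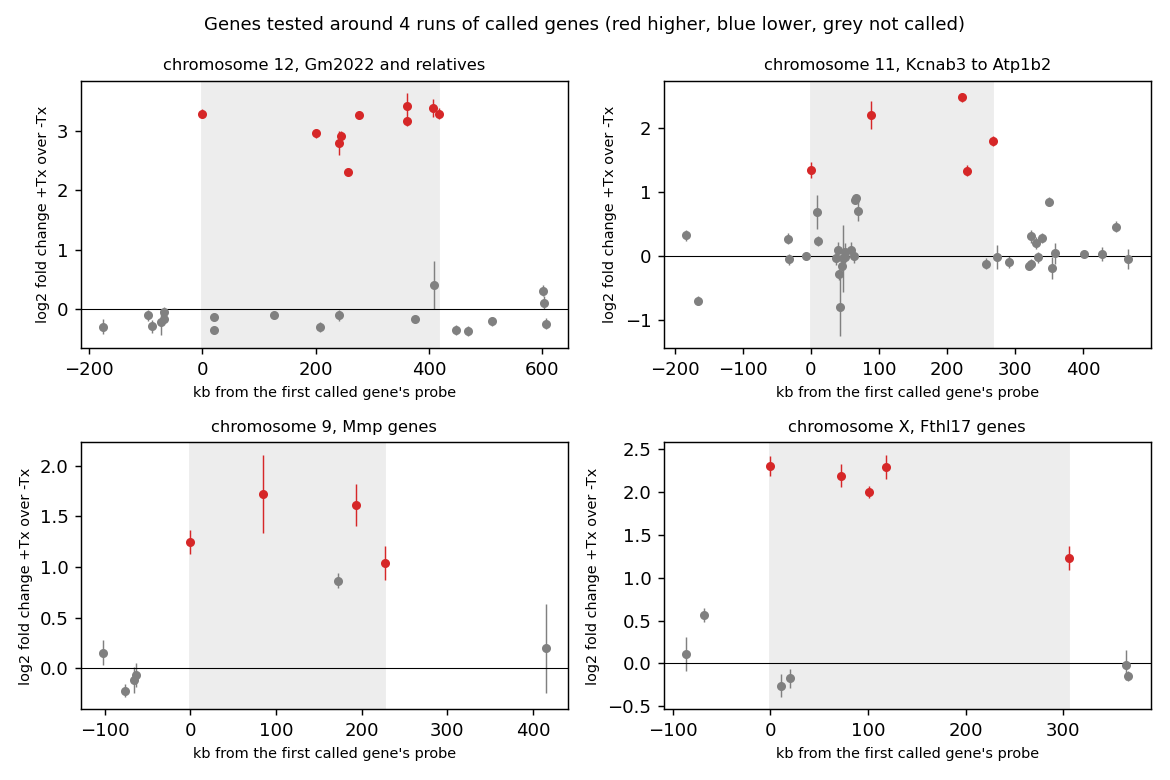
Log2 fold change of +Tx over -Tx (vertical axis, bars are ± SE from limma) of every gene tested around 4 runs, by distance of its probe from the first called gene of the run (horizontal axis, kb). Red points are called higher, grey points are not called, and the shaded span is the run. In the chromosome 12 run the 10 called genes stand near a log2 fold change of 3 beside uncalled genes near 0.

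The chromosomes differed in their shares of higher genes. Chromosome 7, which holds the Zscan4 and Usp17l clusters, had 45 of 1700 genes tested called higher (2.65%), chromosome 11 had 39 of 1650 (2.36%) and chromosome 12 had 20 of 862 (2.32%). Chromosomes 14, 18 and 19 had 0.574% to 0.694%. On chromosome 17, 16 genes were higher and 1 was lower of 1147 tested. Gene models without a functional name were called higher 34 times and lower 6 times among 724 Gm models.

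Several of the genes called lower are targets of signalling pathways. In the Wnt pathway, in which secreted Wnt proteins stabilise beta-catenin and activate Tcf and Lef factors, 1 gene was called higher and 1 lower of 57. Sp5, a transcription factor gene directly activated by Wnt and by Stat3, gave log2 signals of 0.79, 0.88 and 0.79 on the -Tx arrays and of -1.86, -2.05 and -2.17 on the +Tx arrays. It was 7.19-fold lower with wide separation of the groups (SE of the log2 fold change 0.140, adjusted p = 3.41e-06). Of 22 Wnt targets, Sp5 included, 4 were higher and 4 lower without a fold limit. Axin2, the usual readout of the pathway, gave a log2 difference of 0.47 (adjusted p = 0.0675, and 0.0173 without +Tx array 1). Wnt6, a ligand, gave -1.26, -1.37 and -1.34 on the -Tx arrays and 0.18, 0.14 and 0.13 on the +Tx arrays, and was 2.77-fold higher (adjusted p = 1.27e-06). The receptor gene Fzd10 rose by 0.85 on the log2 scale (adjusted p = 0.00014), and Tcf7l1, the Tcf factor that represses Wnt targets in ES cells, fell by 0.53 (adjusted p = 0.000956).

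The Sp5 promoter (RefSeq, GRCm38.p6, chr2:70474673-70474972, plus strand) holds the Tcf motif CTTTGAT, in capitals, at position -104 from the start.
Sp5: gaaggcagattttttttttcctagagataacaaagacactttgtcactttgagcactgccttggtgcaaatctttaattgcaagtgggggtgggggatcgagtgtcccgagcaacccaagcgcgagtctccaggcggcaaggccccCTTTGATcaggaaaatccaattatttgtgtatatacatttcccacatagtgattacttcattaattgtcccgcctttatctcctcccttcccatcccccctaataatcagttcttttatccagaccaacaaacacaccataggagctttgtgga

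Hedgehog proteins bind the receptor Ptch1 and thereby release Gli factors, and Gli1 and Ptch1 are themselves activated by the pathway. Both were called lower, as 2 of 6 Hedgehog targets tested. Without a fold limit 1 of the 6 was higher and no other was lower. Gli1 gave log2 signals of 3.58, 3.69 and 3.63 on the -Tx arrays and of 2.11, 2.09 and 2.19 on the +Tx arrays, 2.85-fold lower (adjusted p = 1.07e-06). Ptch1 gave 0.24, -0.14 and -0.21 on the -Tx arrays and -1.04, -1.32 and -1.71 on the +Tx arrays. The Ptch1 groups varied more between arrays but did not overlap (2.50-fold lower, adjusted p = 0.00134), and its other probe gave a log2 difference of -1.28. Of 12 ligand, receptor and effector genes of the pathway none was called, and 1 was higher and 2 lower without a fold limit.

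Nodal, a TGF-beta ligand, is held in check by its own targets Lefty1 and Lefty2. Lefty1 gave log2 signals of 3.55, 3.60 and 3.56 on the -Tx arrays and of 1.91, 1.77 and 1.88 on the +Tx arrays, and Lefty2 3.08, 3.12 and 3.12 against 1.74, 1.65 and 1.74. Both inhibitors were lower on every +Tx array, by 3.28-fold and 2.63-fold. Nodal itself moved the other way by 0.52 on the log2 scale (adjusted p = 0.000532), and 8 of the 24 genes of the pathway were higher and 5 lower without a fold limit. Of 6 other Nodal targets, listed apart from the inhibitors, 2 were higher and none lower without a fold limit. Hey1, a repressor induced by Notch and by BMP, was 2.26-fold lower (adjusted p = 0.00294). Notch4, a Notch receptor, gave 0.52, 0.41 and 0.69 on the -Tx arrays and 2.41, 2.44 and 2.42 on the +Tx arrays. The receptor was 3.69-fold higher (adjusted p = 9.98e-07), and the +Tx arrays differed by less than those of the other group. In the BMP pathway the antagonist Grem1 was 2.08-fold higher (adjusted p = 1.59e-05), the ligand gene Bmp4 fell by 0.58 on the log2 scale (adjusted p = 0.000619), and the target gene Id1 gave 0.05 (adjusted p = 0.556).

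Among 16 targets of LIF and Stat3, 4 were called lower, Nr0b1 and Sp5 included, and 7 were lower and 3 higher without a fold limit, while of 9 receptors and kinases of the pathway 2 were higher. Socs2, an inhibitor of cytokine signalling, gave log2 signals of 2.41, 2.44 and 2.39 on the -Tx arrays and of 1.38, 1.33 and 1.39 on the +Tx arrays. The spread within each group was small beside the difference, which was 2.07-fold (adjusted p = 1.59e-05) and close to the limit (-0.98 on the log2 scale with normexp). Socs3, the classical target of Stat3, gave a log2 difference of 0.16 (adjusted p = 0.209), and Stat3 itself 0.16 (adjusted p = 0.0783, and 0.0221 with quantile normalization). In the FGF and ERK pathway 8 of 21 genes of the ERK response were higher and 3 lower without a fold limit. Of 13 FGF ligands and receptors 3 (23.1%) were lower and 1 (7.7%) higher without a fold limit. Called lower were 2 of the 13, among them the ligand gene Fgf17. The ligand gene Fgf4 gave 0.20 (adjusted p = 0.165) and the ERK phosphatase gene Dusp6 0.13 (adjusted p = 0.131), both passing with quantile normalization (adjusted p = 0.048 and 0.0144), while Dusp4 fell by 0.79 (adjusted p = 0.000541).

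**Figure D3:**
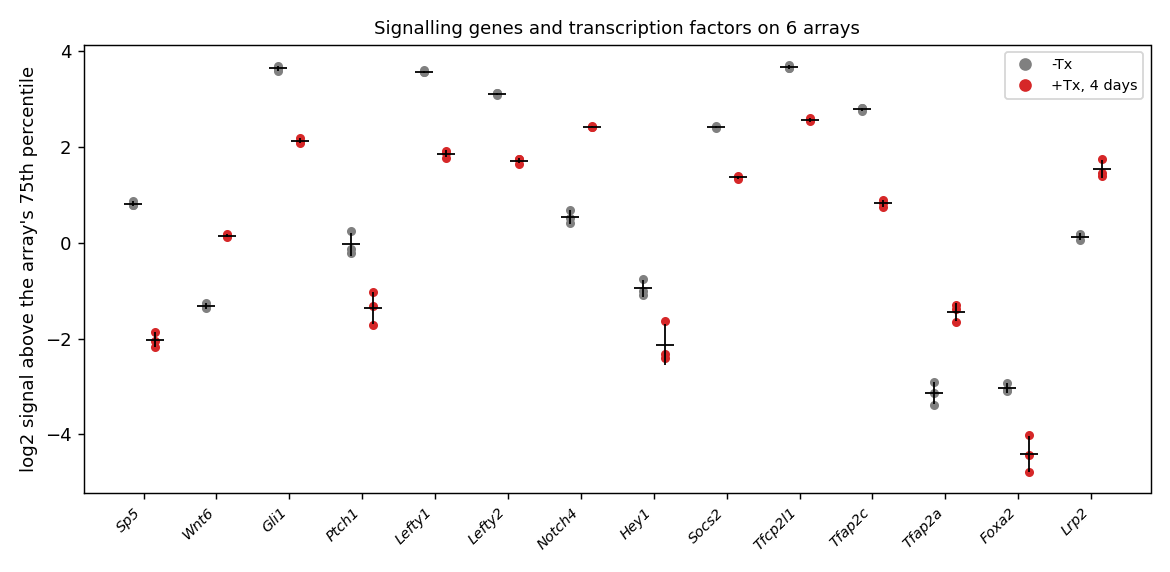
Log2 signal (vertical axis, relative to the 75th percentile of each array) of 14 signalling genes and transcription factors on each -Tx array (grey) and +Tx array (red), with the mean and SD of 3 arrays. The 2 groups of arrays do not overlap for any of the 14 genes, all of which were called. Of the 22443 genes tested, 4077 higher and 6477 lower ones do not overlap either. The levels of different genes come from different probes and cannot be compared with each other.

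Naive factors fell more often than they rose. Of 28 naive factors tested 14 (50.0%, against 14.7% of all genes) were lower and 6 higher without a fold limit, 4 were called lower, and the median log2 fold change was -0.24. Nr0b1 itself is one of the 14 and of the 4. Of 8 core factors 1 was lower and 1 higher. The 15 lower genes of both kinds became 9 on the slide that held both groups. Tfcp2l1 gave log2 signals of 3.64, 3.71 and 3.65 on the -Tx arrays and of 2.55, 2.54 and 2.60 on the +Tx arrays, a 2.15-fold difference without overlap (adjusted p = 6.65e-06). Tfap2c, an AP-2 factor of naive cells, germ cells and trophoblast, gave 2.80, 2.75 and 2.80 on the -Tx arrays and 0.83, 0.75 and 0.89 on the +Tx arrays, 3.90-fold lower (adjusted p = 2.93e-07). Smaller falls were found for Mycn (0.77 on the log2 scale), Gbx2, Klf2, Nr5a2 and Esrrb. By their brightest probes these all had log2 fold changes between -0.77 and -0.41. The other probe of Nr5a2 gave -0.855. Esrrb gave -0.41 by its brightest probe and -0.12 by its other probe. In the other direction Tbx3 rose by 0.75, Klf4 by 0.58 and Dppa2, which encodes an activator of 2-cell genes, by 0.92 on the log2 scale. Genes of the primed epiblast, the later state of pluripotent cells, were split, with 4 higher and 6 lower of 20. Of these, Pou3f1 fell by 0.77 (adjusted p = 0.00018) and the DNA methyltransferase gene Dnmt3b by 0.64 (adjusted p = 0.00116), while Otx2 rose by 0.71 by 1 probe and gave -0.02 by the other.

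AP-2 factors changed in both directions. Tfap2a, of trophoblast and surface ectoderm, gave log2 signals of -3.38, -2.91 and -3.13 on the -Tx arrays and of -1.38, -1.66 and -1.30 on the +Tx arrays. It was 3.23-fold higher without overlap (adjusted p = 6.87e-05), where Tfap2c was lower. Tfap2e was above background on the +Tx arrays alone and at least 2.27-fold higher. Hand1, a factor of trophoblast and lateral mesoderm, was likewise above background with Tx alone and at least 2.53-fold higher (adjusted p = 0.000177). Tead4, which specifies trophectoderm, was 2.05-fold lower (adjusted p = 0.00052) and passed below the 2-fold limit without -Tx array 3 or +Tx array 2 (log2 fold change -0.94 and -0.95). Neurod1, a neuronal factor, was at least 2.31-fold lower, and Klf12 2.12-fold lower.

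Genes of the endoderm list were higher more often than lower. Of 45 genes of primitive and visceral endoderm 17 (37.8%, against 11.9% of all genes) were higher and 4 lower without a fold limit, with a median log2 fold change of 0.32. The higher count was 6 with slide as a block. Of the 17, 13 were among 31 genes of secreted, uptake and matrix proteins, of which 2 were lower. Of 14 transcription factor and receptor genes 4 were higher and 2 lower, and 7 were above background on all 6 arrays. Lrp2, the receptor megalin of visceral endoderm, gave log2 signals of 0.18, 0.05 and 0.15 on the -Tx arrays and of 1.39, 1.46 and 1.74 on the +Tx arrays, 2.65-fold higher without overlap (adjusted p = 6.72e-05). Npl, a lyase of sialic acid, was 3.62-fold higher. Foxa1, above background on 1 of 3 -Tx arrays, was 3.11-fold higher. Foxa2, its close relative and a factor of definitive and visceral endoderm, gave -3.11, -2.92 and -3.08 on the -Tx arrays and -4.43, -4.79 and -4.02 on the +Tx arrays. Foxa2 was 2.59-fold lower (adjusted p = 0.00226) and above background on 1 of 3 +Tx arrays. Of the factors that drive primitive endoderm, Sox7 was above background on 1 array of each group and gave a log2 difference of 0.67 (adjusted p = 0.256, and 0.011 without -Tx array 2), and Gata6 gave 0.66 (adjusted p = 0.0314, and 0.22 with slide as a block). The call of Gata6 was also lost without any 1 of -Tx arrays 1 and 2 and +Tx arrays 1, 2 and 3 (adjusted p 0.061 to 0.097). Pdgfra, the receptor of primitive endoderm and of fibroblasts, rose by 0.59 (adjusted p = 0.00394) and was at 0.51 (adjusted p = 0.069) with slide as a block.

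Of 31 Hox genes, which pattern the body axis and are silent or low in ES cells, 19 (61.3%) were higher and none lower without a fold limit, and 4 were called higher. Of the 31, 25 were above background on all 6 arrays, and 3 on all +Tx arrays but not on all -Tx arrays. The median log2 fold change was 0.41, or 0.39, 0.43 and 0.48 on the separate +Tx arrays. Hoxc13 gave log2 signals of -3.20, -3.01 and -3.42 on the -Tx arrays and of -1.58, -1.73 and -1.78 on the +Tx arrays, 2.84-fold higher with no overlap (adjusted p = 6.91e-05). The genes with the largest folds, Hoxc11, Hoxb13, Hoxc13 and Hoxd13, lie at the 5' ends of their clusters. Of these, Hoxc11, Hoxb13 and Hoxd13 were above background on 1, 2 and 1 of 3 -Tx arrays and on all +Tx arrays. They are the 3 members that the filter favoured for being high with Tx. Hoxc11 and Hoxb13 varied widely between -Tx arrays (-5.25 to -3.61 and -4.69 to -3.31), and with slide as a block their adjusted p was 0.098 and 0.056, and that of Hoxd13 0.075. Hoxd13 was also below 2-fold without -Tx array 1 (log2 fold change 0.86). Of the 31 genes, 5 were higher with slide as a block.

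Many marker genes of fibroblasts, the kind of cell used as feeders, were also higher by small amounts. Of 29 markers, all above background on at least some arrays, 19 were higher and none lower without a fold limit, none past 2-fold, and the median log2 fold change was 0.37. The summed signal of the 29, in multiples of the 75th percentile, was 685.8, 719.9 and 689.2 on the -Tx arrays and 843.4, 861.1 and 890.5 on the +Tx arrays, without overlap. Lox, which crosslinks collagen, rose by 0.70 on the log2 scale (adjusted p = 0.000137), Twist2, a mesenchymal factor, by 0.54 (adjusted p = 0.000494), Thy1 by 0.37 (adjusted p = 0.0529 with slide as a block) and Dcn by 0.39. The collagens typical of fibroblasts moved less: Col1a1 gave 0.27 (adjusted p = 0.0824) and Col3a1 0.10 (adjusted p = 0.472). With slide as a block 5 of the 29 were higher, and on the slide with both groups 1. Of 38 collagen, laminin and integrin genes 19 were higher and 1 lower without a fold limit, and this count fell to 4 with slide as a block and to 10 to 12 without any 1 of -Tx arrays 1, 2 and 3 or +Tx array 3. Col4a1 and Col4a2, of basement membrane, rose by 0.81 and 0.59, the latter with an adjusted p of 0.14 with slide as a block. Itgav rose by 0.68 and Itga7 by 0.55. The part of fibroblast RNA in the values of the Hox, matrix, Mmp and endoderm genes was not tested. Of 10 blood and endothelial markers 5 were higher and 2 lower, with summed signals of 58.05 to 61.46 on the -Tx and 47.1 to 59.76 on the +Tx arrays.

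**Figure D4:**
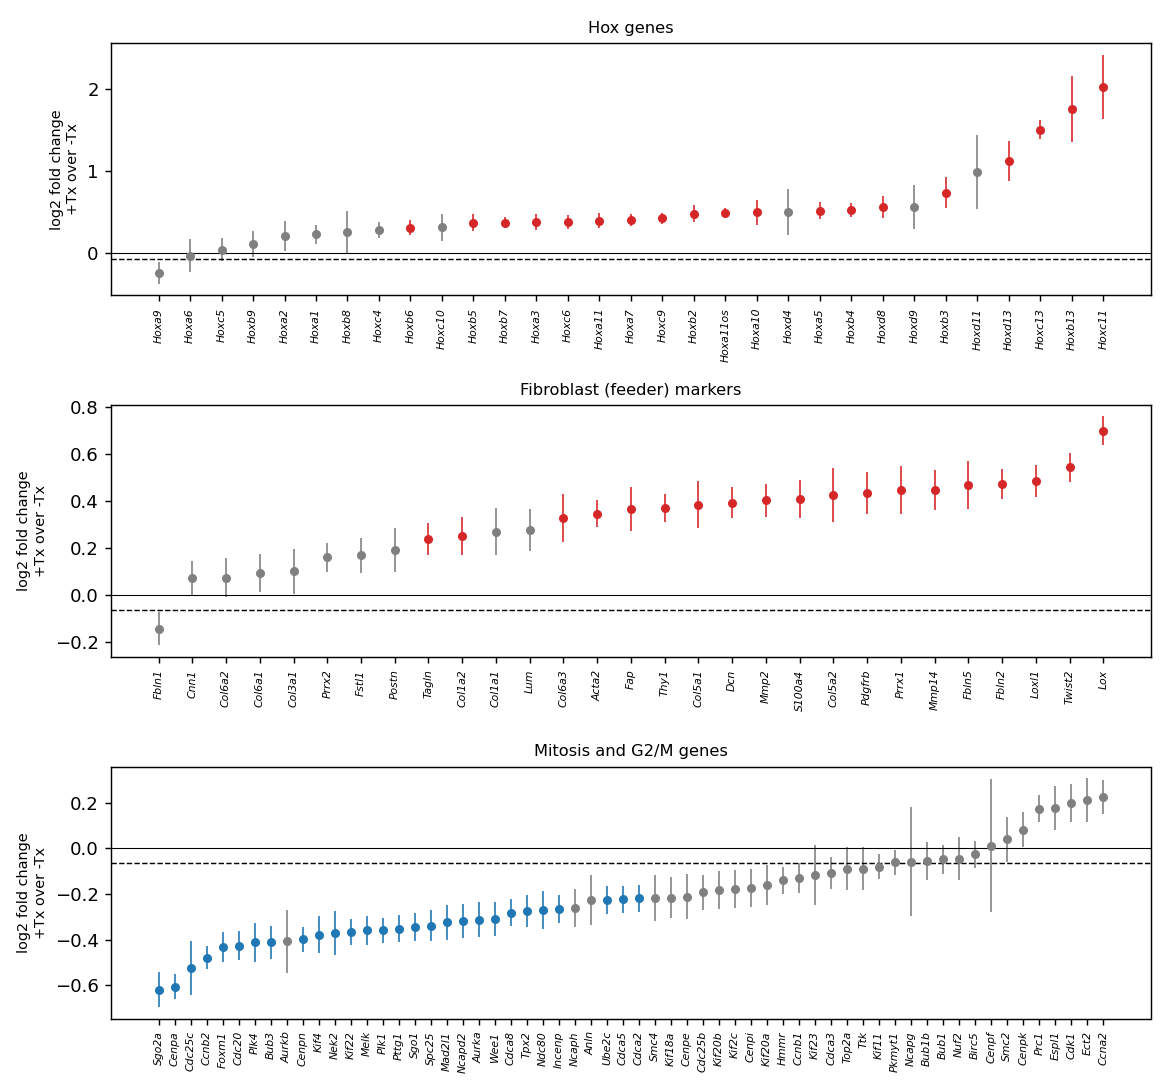
Log2 fold change of +Tx over -Tx (vertical axis, bars are ± SE from limma) of each Hox gene, fibroblast marker and mitosis gene tested, ordered by size. Red and blue points are higher and lower at an adjusted p under 0.05 without a fold limit, grey points did not pass, and the dashed line is the median of all genes tested, -0.06. Of the 31 Hox genes 19 are red, of the 29 markers 19 are red, and of the 60 mitosis genes 28 are blue.

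Epithelial genes were found among the lower genes. Of 16 keratin and junction genes of trophectoderm and epithelium 8 (50.0%) were lower and 2 higher without a fold limit, and 4 of 27 keratins were called lower and none higher. The whole list of 32 trophectoderm and epithelial genes had 12 lower, which became 6 with slide as a block, 4 on the shared slide, and 7 without the filter on dim probes or without +Tx array 2. Krt17 gave log2 signals of 1.25, 1.20 and 1.24 on the -Tx arrays and of -0.82, -0.87 and -1.12 on the +Tx arrays, 4.49-fold lower without overlap (adjusted p = 6.03e-07). Its neighbour on chromosome 11, Krt42, was 2.91-fold lower, and Krt23, not above background with Tx, was at least 3.61-fold lower. The tight junction protein gene Cldn4 was 2.77-fold lower and Wfdc2, of a secreted protease inhibitor, 3.42-fold lower. Rab25, of a small GTPase of epithelial membrane traffic, was 3.26-fold lower and above background on 2 of 3 +Tx arrays. Lnx1, of a ubiquitin ligase, was 4.89-fold lower and above background on 1 of 3 +Tx arrays. Cdh1, of the E-cadherin of ES cell junctions, fell by 0.48 on the log2 scale (adjusted p = 0.00201). Krt8 fell by 0.40, and its adjusted p was 0.16 with slide as a block.

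The promoter of Rab25 (RefSeq, GRCm38.p6, chr3:88548230-88548529, minus strand) is printed with its match to TTCNNNGAA, the core of a Stat site, in capitals at position -219 from the start.
Rab25: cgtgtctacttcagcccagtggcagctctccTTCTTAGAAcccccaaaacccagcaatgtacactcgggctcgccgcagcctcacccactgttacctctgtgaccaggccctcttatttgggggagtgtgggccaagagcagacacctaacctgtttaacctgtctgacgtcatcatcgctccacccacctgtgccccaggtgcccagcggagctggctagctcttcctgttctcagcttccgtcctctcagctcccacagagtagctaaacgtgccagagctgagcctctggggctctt

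Promoters of called genes were searched for 6 such motifs on both strands, over the 300 bases around the start. RefSeq promoters were found for 205 genes called higher, 99 called lower and 12029 tested. TTCNNNGAA was in 3.90% of the promoters of higher genes, 14.14% of those of lower genes and 7.07% of all tested. TATAAA was in 20.49%, 19.19% and 8.88%, and GGGCGG, which Sp and Klf factors bind, in 40.49%, 37.37% and 59.14%. CTTTGAT was in 5.37%, 5.05% and 2.65%. The motif AAGGTCA of Esrrb and Nr5a2, partners of Nr0b1, was in 4.39%, 2.02% and 3.47%. Its longer form TCAAGGTCA, which contains AAGGTCA, was in 2 of 205, 0 of 99 and 36 of 12029 promoters. In the whole RefSeq table of 27025 promoters the shares were 8.47% for TTCNNNGAA, 14.16% for TATAAA, 35.91% for GGGCGG, 3.72% for CTTTGAT, 4.66% for AAGGTCA and 0.41% for TCAAGGTCA. These shares are descriptions of letters in a window, and copies of a family share promoters, as the pair of Pramel genes does.

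Germ line and maternal genes beyond the 2-cell families changed in both directions. Of 10 Nlrp genes, which encode NOD-like receptor proteins of oocyte and embryo, 3 were called lower and none higher. Nlrp4f was 2.33-fold lower and Nlrp9b at least 1.94-fold lower, the latter with an adjusted p of 0.064 with slide as a block. Nlrp4a was 2.07-fold lower, and just under the 2-fold limit without -Tx array 2 or without +Tx array 1 (log2 fold change -0.95 for the latter). Dppa3, of a maternal protein that guards DNA methylation in the zygote, gave log2 signals of -0.41, -0.56 and -0.69 on the -Tx arrays and of -2.29, -2.21 and -2.09 on the +Tx arrays, 3.12-fold lower. Of 46 genes of germ cells and meiosis 11 (23.9%) were higher and 12 (26.1%) lower without a fold limit. Tdrd12, of the piRNA pathway, fell by 0.93 (adjusted p = 0.000226), and Mael, of the same pathway, rose by 0.74 (adjusted p = 0.000224). Of 47 imprinted genes 14 (29.8%, against 11.9% of all genes) were higher and 8 (17.0%, against 14.7%) lower without a fold limit. Their median log2 fold change was 0.11, and the members named next are all among the lower ones. Sfmbt2, a Polycomb gene expressed from the paternal copy, gave 1.15, 0.90 and 1.12 on the -Tx arrays and -0.43, -0.56 and -0.16 on the +Tx arrays, 2.70-fold lower (adjusted p = 7.21e-05). The growth inhibitor genes Cdkn1c and Phlda2, neighbours on chromosome 7, fell by 0.81 and 0.76.

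Genes of cell division shifted by small amounts. Of 60 genes of mitosis and G2/M 28 (46.7%) were lower and none higher without a fold limit, none past 2-fold, with a median log2 fold change of -0.22, or -0.28, -0.28 and -0.15 on the separate +Tx arrays. Cenpa, the histone of the centromere, gave log2 signals of 3.09, 3.1 and 3.09 on the -Tx arrays and of 2.55, 2.44 and 2.49 on the +Tx arrays, a fall of 1.52-fold (adjusted p = 0.000174). Ccnb2 fell by 0.48, Sgo2a by 0.62 and Plk1 by 0.36 on the log2 scale. The drivers of mitotic entry did not pass: Cdk1 gave 0.20 (adjusted p = 0.109), Ccna2 0.23 (adjusted p = 0.0537) and Ccnb1 -0.13 (adjusted p = 0.172). With quantile normalization Cdk1 and Ccna2 passed as higher (adjusted p = 0.03 and 0.0145), and with the mean of its probes Ccnb1 passed as lower (adjusted p = 0.0275). The count of 28 was 10 with slide as a block, 17 without -Tx array 2 and 18 without +Tx array 2. Among 36 genes of DNA replication 10 were lower and 1 higher, with Rfc5, of the clamp loader, at -0.59 by its brightest and -0.09 by its other probe.

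Among telomere and repair genes, those that changed were mostly lower. Of 17 telomere genes 9 (52.9%) were lower and 2 higher without a fold limit, and of 34 genes of double-strand break repair 12 were lower and 1 higher. Stn1, of the complex that caps single-stranded telomere ends, gave log2 signals of 3.19, 3.18 and 3.18 on the -Tx arrays and of 2.62, 2.62 and 2.67 on the +Tx arrays. All +Tx arrays were lower by a similar amount (1.46-fold, adjusted p = 0.000196). Gar1, of the telomerase particle, fell by 0.54 and the telomere-binding factor gene Terf2 by 0.54. Wrap53, which brings telomerase to Cajal bodies, was the 1 gene of the list called higher, and gave 3.56, 3.62 and 3.56 on the -Tx arrays and 4.88, 4.94 and 4.91 on the +Tx arrays. It was 2.53-fold higher (adjusted p = 1.55e-05) and lies in the run of chromosome 11 described above. Of the break sensing complex, Mre11a fell by 0.40 and Rad50 by 0.37. With slide as a block 13 of the 21 lower genes of telomeres and repair were counted.

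Among genes of protein turnover and stress, some proteasome and stress response genes were lower by small amounts. Of 49 proteasome genes 20 (40.8%) were lower and none higher without a fold limit, with a median log2 fold change of -0.21, none past 2-fold. Psmb4, a core subunit, gave log2 signals of 6.56, 6.53 and 6.54 on the -Tx arrays and of 6.12, 6.12 and 6.09 on the +Tx arrays. The difference was small but larger than the spread (1.35-fold lower, adjusted p = 0.00307). The count of 20 was 11 with quantile normalization, 4 with slide as a block, and 7, 10, 10 and 8 without -Tx array 2, -Tx array 3, +Tx array 1 and +Tx array 2. Of 36 genes of the integrated stress response, through which Atf4 raises amino acid supply, 16 were lower and 4 higher without a fold limit, and 8 were lower with slide as a block. Chac1, which degrades glutathione, gave 1.82, 1.97 and 1.92 on the -Tx arrays and 1.18, 1.14 and 1.02 on the +Tx arrays, 1.73-fold lower without overlap (adjusted p = 0.000266). Trib3 fell by 0.78 and Psat1, of serine synthesis, by 0.59, while Asns gave 0.06 (adjusted p = 0.529). Atf3, an early response factor, went the other way and was at least 2.94-fold higher with no array above background without Tx. Heat shock genes were split, with 6 higher and 4 lower of 28.

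In metabolism the calls were few and the shares uneven. Of 31 genes of amino acid, one-carbon and nucleotide pathways 13 (41.9%) were lower and 4 higher without a fold limit, and of 21 amino acid transporters 8 were lower and 2 higher. Slc38a1, a glutamine transporter, fell by 0.70 and Slc38a5 by 0.91, against the rise of Slc1a1 given above. Slc7a9, of cystine uptake, was at least 1.90-fold lower, with an adjusted p of 0.059 with slide as a block. Of 41 genes of glycolysis and glucose use 9 were lower and 7 higher. Slc2a1, the main glucose transporter, gave log2 signals of 5.33, 5.34 and 5.34 on the -Tx arrays and of 4.42, 4.27 and 4.67 on the +Tx arrays, 1.85-fold lower (adjusted p = 0.00147). Of 25 genes of cholesterol synthesis 7 were lower and none higher, with Ebp, a sterol isomerase, at -0.90 (adjusted p = 0.000222). Elovl6, of fatty acid elongation, rose by 0.73. Of 95 respiratory chain genes 15 were lower and 2 higher without a fold limit, with Cox8c, a testis form of a cytochrome oxidase subunit, 3.90-fold higher. Of 22 ribosomal protein genes 1 was lower, and of 25 genes of ribosome assembly and initiation 7 were lower and none higher.

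Groups of genes with a known link to nuclear receptors, Tx or DNA damage gave calls past 2-fold that were few in number. Some had raised shares, with or without a fold limit. Of 37 nuclear receptors none besides Nr0b1 was called, and 7 were higher and 6 lower without a fold limit. Nr2f1, an orphan receptor of neural and mesodermal cells, rose by 0.60 (adjusted p = 0.000409). Of 10 steroidogenic genes, the classical field of Nr0b1, 2 were higher and 2 lower without a fold limit, none past 2-fold. Of 24 genes known to respond to oestrogen or tamoxifen 2 were called lower, a larger share than the 0.762% of all genes. Without a fold limit 7 of the 24 were higher and 4 lower. The 2 called were Pdzk1 (3.54-fold) and Wfdc2, the latter one of the epithelial genes above. Of the 15 that respond to oestrogen 5 (33.3%, against 11.9% of all genes) were higher and 3 lower, with a median log2 fold change of 0.33, and of the 9 that respond to foreign compounds 2 were higher and 1 lower. Of 30 p53 pathway genes, which respond to DNA breaks, 10 (33.3%) were higher and 3 lower without a fold limit, none past 2-fold. Sesn1, a stress-induced p53 target, gave log2 signals of 0.40, 0.34 and 0.34 on the -Tx arrays and of 1.15, 1.11 and 1.38 on the +Tx arrays, 1.80-fold higher (adjusted p = 0.000395). Cdkn1a, the cell cycle inhibitor p21, rose by 0.28 (adjusted p = 0.0154), with an adjusted p of 0.10 with slide as a block and of 0.052 to 0.057 without -Tx array 1, -Tx array 3 or +Tx array 2. The interferon and antigen presentation genes varied between arrays of the same group more than between groups, with medians of -0.31, 0.31 and -0.25 on the +Tx arrays and of -0.24, -0.09 and 0.34 on the -Tx arrays, and 1 of 42 was higher and 4 lower.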

How the data were processed

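Per the labels, total RNA of each group was hybridised to 3 Agilent SurePrint G3 1-colour arrays, which the authors scanned and read with Feature Extraction 10.7.3.1. The deposited processed signals are intensities, background-subtracted by that software and not scaled between arrays. A table deposited for the series holds the authors' signal values on a linear scale (column medians 0.103 and 0.102), made with the NIA Array Analysis Software, with 1 column per group. Its rows were matched by spot number, and it served as an alternative for fold changes, without a test; how it was scaled is not given in the sources used here. Array coordinates are those of mm9.

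From the intensities, log2 values were computed and the 75th percentile of each array subtracted. Control spots and outlier spots were left out, spots of the same probe were averaged, and a probe was kept if all arrays of 1 or more of the 3 groups of the study flagged it as well above background, which left 31191. The brightest probe stood for its gene, with names updated from RefSeq for 27235 probes. limma 3.58.1 (R 4.3.3) was fitted to all 9 arrays, so the third group lends to the estimate of the spread, and p-values were adjusted by Benjamini-Hochberg over 22443 genes. Genes called here are over 2-fold with an adjusted p under 0.05. No -Tx array was above background for 125 of those called higher, and no +Tx array for 38 of those called lower. Where no array of the dimmer group was above background, a fold is given as a lower bound, "at least N-fold", against the higher of the dim probe's signal and the lowest signal of any probe well above background on the same array.

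Of the 39 lists and 44 families, a part is named. Gene names come from the 30 largest changes in each direction, from up to 6 called members of each list, or up to 3 by adjusted p where under 2 were called, and from key members; genes of the runs were added after their values were seen. The members and lists were chosen with earlier results of these data known. The fit was tested on simulated data. The alternatives were other background corrections, scalings, filters, probe rules and spread estimates, slide as a block or alone, and each array left out.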

Additional observations from a re-analysis of the deposited data

How the results depend on the processing

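No paired analysis was possible because the labels do not tie an array to a replicate number. The counts of higher and lower genes past 2-fold fell to 154 and 52 with normexp, to 209 and 93 with only probes above background on all 9 arrays, and to 171 and 31 (84.7% of calls higher, against 69.6%) when tested against a fold of 2. Without a fold limit, slide as a block gave 1067 higher and 1164 lower genes, the slide with both groups alone (3 arrays against 1, the lone array assumed to vary like the others) 725 and 867, and no filter on dim probes 2001 lower genes.

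Among the lists without a fold limit, slide as a block and the single slide left 10 and 4 mitosis genes lower, 4 and 2 proteasome genes, 8 and 6 stress response genes, and 13 and 8 telomere and repair genes. In the same order they left 6 and 4 trophectoderm and epithelial genes lower, 5 and 3 Hox genes higher, 4 and 4 collagen, laminin and integrin genes, 5 and 1 fibroblast markers, and 6 and 8 endoderm genes. The single slide left 9 naive and core factors lower. Quantile normalization left 11 proteasome genes lower. Without the filter on dim probes 8 proteasome genes were lower, 11 collagen, laminin and integrin genes higher and 7 trophectoderm and epithelial genes lower. The 10 Pramel genes past 2-fold became 5 with normexp and 5 with probes above background on all 9 arrays. The cause of these changes was not tested.

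Leaving out 1 array at a time gave 1867 to 3122 lower genes without a fold limit, 17 to 34 mitosis genes, 7 to 21 proteasome genes, 10 to 17 collagen, laminin and integrin genes and 7 to 10 trophectoderm and epithelial genes. The count of further 2-cell genes called was 13 in each of these 6 fits. Of the 156 genes named with values, none changed sign in the alternatives run for it (132 of them with only probes above background on all 9 arrays). With normexp 39 lost their call, as did 40 of 83 tested against a fold of 2, 30 on the single slide and 14 with slide as a block. The authors' table of group values gave a log2 fold change within 1 SD of the one reported for all 156. Called genes above background on no array of the 2 groups compared, 12 higher and 2 lower, have no measured fold. They passed the filter through the third group.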
